A study of Mus musculus with 12 samples.

Results

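Transcripts of 9 bone matrix and osteocyte genes were measured in mouse mandibular condylar fibrocartilage, the cartilage on the condyle of the lower jaw. The genes were the matrix protein genes Ibsp, Spp1, Dmp1, Mepe, Bglap and Sparc, the peptidase gene Phex, and the membrane protein genes Ifitm5 and Panx3. They were taken from the table of counts by symbol, and all 9 were found among its 23284 genes and passed the filter on low counts with 14832 genes in all. The mice were C57BL/6 females, all ovariectomized at 16 weeks of age, given a pellet for 1 week and sampled at 17 weeks, so that every group lacked ovarian estrogen. The 4 groups were estrogen receptor alpha knockout mice (ERalphaKO) given estradiol (E2; n = 3 libraries), ERalphaKO given placebo (Plb; n = 4), wild type (WT) given E2 (n = 3) and WT given placebo (n = 2). The E2 pellet held 0.01 mg with a release time of 60 days. RNA came from all cells of the tissue, and the part of Esr1 that the knockout lacks is not stated in the labels. The design asks what E2 does to these transcripts in this tissue, and whether it does so when the receptor is lost.

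Bone is a collagen scaffold in which calcium phosphate is laid down, and the proteins studied here sit in or control that process. Ibsp, Spp1, Dmp1 and Mepe encode acidic, phosphorylated secreted proteins of the small integrin-binding ligand N-linked glycoprotein family, of which bone sialoprotein (Ibsp) is known for starting crystal growth and osteopontin (Spp1) and Mepe for restraining it. Osteoblasts and hypertrophic chondrocytes make Ibsp, mature osteoblasts make osteocalcin (Bglap), and osteocytes, the cells buried in bone, make Dmp1, Mepe and Phex, which act in phosphate balance through the hormone Fgf23. In the jaw condyle, fibrocartilage lies directly on bone, and its hypertrophic chondrocytes border on osteoblasts.

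The libraries held 9696434 to 28750636 counts, of which the 9 genes took 3.533% to 5.001%. Esr1, the gene of the receptor, stood, in counts-per-million (CPM, scaled by TMM factors), at 3.65 to 5.78 in the 7 ERalphaKO libraries, against 8.52 to 17.5 CPM in the 5 WT libraries (-1.37 ± 0.14 averaged over treatments, edgeR adjusted p = 0.00232), and these counts do not show what receptor remains. ERalphaKO placebo replicate 3 and ERalphaKO E2 replicate 1 stood apart by summed granulocyte markers, with 17190 and 7276 CPM against 3.72 to 2432 CPM in the other 10 libraries. The tissue's own markers were present: the 11 cartilage markers in the table summed to 6090 to 9700 CPM in ERalphaKO E2, 6010 to 12300 CPM in ERalphaKO placebo, 10500 to 27100 CPM in WT E2 and 10700 to 17000 CPM in WT placebo libraries. Whether each library is from its own animal is not stated in the labels, and the p-values here measure only how these samples spread, which may be technical.

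Of these genes 4 lie in a cluster on mouse chromosome 5, in the order Dmp1, Ibsp, Mepe and Spp1, with Dspp, the tooth dentin gene of the same family, before Dmp1. Dspp had 0 or 1 counts in each library. The promoters of the cluster members Ibsp and Spp1 are shown because their transcripts gave opposite signs with E2 in WT mice, and those of Ifitm5 and Bglap because they gave the largest positive values with E2 in ERalphaKO mice. Each sequence is the 250 bases before the transcription start in RefSeq, build GRCm38.p6, read 5′ to 3′ on the gene's strand. Capitals mark matches, on either strand, to 4 motifs: the single arm of an estrogen response element, which reads GGTCA; the letters TGTGGT, to which Runx factors bind; a CCAAT box; and a promoter box that reads TATAAA.
Ibsp promoter, chr5:104299037-104299286, plus strand: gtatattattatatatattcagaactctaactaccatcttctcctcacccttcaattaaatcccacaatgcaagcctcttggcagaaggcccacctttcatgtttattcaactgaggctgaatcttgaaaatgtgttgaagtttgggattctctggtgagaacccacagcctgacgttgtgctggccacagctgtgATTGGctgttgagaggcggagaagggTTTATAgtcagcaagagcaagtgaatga
Spp1 promoter, chr5:104434861-104435110, plus strand: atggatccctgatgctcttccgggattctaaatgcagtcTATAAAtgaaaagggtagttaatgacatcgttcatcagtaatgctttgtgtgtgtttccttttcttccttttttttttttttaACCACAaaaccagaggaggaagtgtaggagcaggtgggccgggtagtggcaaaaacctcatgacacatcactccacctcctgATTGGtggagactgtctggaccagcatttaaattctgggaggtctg
Ifitm5 promoter, chr7:140950244-140950493, minus strand: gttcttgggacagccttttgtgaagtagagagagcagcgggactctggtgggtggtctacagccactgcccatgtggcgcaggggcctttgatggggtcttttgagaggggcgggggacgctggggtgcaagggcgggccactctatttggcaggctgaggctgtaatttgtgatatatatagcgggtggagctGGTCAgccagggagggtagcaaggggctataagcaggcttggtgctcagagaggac
Bglap promoter, chr3:88384467-88384716, minus strand: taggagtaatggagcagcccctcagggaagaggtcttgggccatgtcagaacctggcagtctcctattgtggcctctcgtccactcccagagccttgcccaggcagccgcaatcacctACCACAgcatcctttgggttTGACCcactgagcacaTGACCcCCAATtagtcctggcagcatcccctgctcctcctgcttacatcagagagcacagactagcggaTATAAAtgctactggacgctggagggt

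RefSeq promoters were matched for 8 of the 9 genes. None of the 10 windows, counting a second start each for Dmp1 and Spp1, held the full palindromic estrogen response element, GGTCA and its reverse complement 3 bases apart, which 0.0639% of all 32851 mouse promoter windows of this length hold on either strand. The single arm GGTCA, which is contained in the full element, was matched in Bglap at 112 and 96 bases before the start, in Mepe at 77, in Ifitm5 at 56 and in Sparc at 45, and 35.2% of all windows hold it. In Mepe it overlapped a Runx match. The Ibsp window held neither GGTCA nor the Runx letters, and had a CCAAT match 54 bases and a TATA match 28 bases before the start, both on the opposite strand. The Spp1 window had a Runx match at 128, a CCAAT match at 46 and a TATA match at 211 bases before the start. All windows hold TGTGGT in 14%, CCAAT in 33.8% and TATAAA in 12.4% of cases. The AP-1 letters TGANTCA, found in 6.75% of windows, were matched in none of the 10. These matches describe letters in short windows and not binding of a factor.

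Osteocalcin counts need care, because Bglap has the close copy Bglap2 on chromosome 3. The coding sequences below are from GENCODE M21, build GRCm38, and capitals mark bases that differ from Bglap.
Bglap coding sequence: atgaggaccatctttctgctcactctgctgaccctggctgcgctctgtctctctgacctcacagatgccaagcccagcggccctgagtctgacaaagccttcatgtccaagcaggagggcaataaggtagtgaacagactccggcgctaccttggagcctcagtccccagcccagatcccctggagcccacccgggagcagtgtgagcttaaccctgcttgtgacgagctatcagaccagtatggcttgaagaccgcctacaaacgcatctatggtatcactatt
Bglap2 coding sequence: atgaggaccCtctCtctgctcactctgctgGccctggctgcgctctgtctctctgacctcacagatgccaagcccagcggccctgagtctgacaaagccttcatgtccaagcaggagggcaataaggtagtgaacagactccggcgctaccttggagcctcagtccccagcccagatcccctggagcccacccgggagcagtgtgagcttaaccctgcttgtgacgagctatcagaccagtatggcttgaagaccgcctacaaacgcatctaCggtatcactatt

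Over 285 coding bases Bglap2 differed from Bglap at 4 positions (98.6% identity). Of the 341 windows of 100 bases in the Bglap transcript, the length of the reads, 192 (56.3%) also occur in the Bglap2 transcript. How the authors counted reads that match both genes is not stated in the sources at hand, so the split between Bglap and Bglap2 is uncertain.

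Per length of exon, taken as the union over transcripts, the matrix protein genes led. In CPM per kilobase of exon, as mean ± SD over all 12 libraries, Sparc stood at 7790 ± 966, Spp1 at 3870 ± 594, Ibsp at 1350 ± 629 and Bglap at 1160 ± 218. The osteocyte genes Dmp1 and Mepe followed with 222 ± 49.5 and 114 ± 27.3 CPM per kilobase. Panx3 stood at 85.4 ± 32.5, Ifitm5 at 58.5 ± 10.7 and Phex at 32.9 ± 7.54 CPM per kilobase. Over the libraries, neighbours in this order overlapped except that every Sparc value lay above every Spp1 value and every Bglap value above every Dmp1 value. The order depends on the length used, and by longest transcript 5 of 9 genes kept their place. Within ERalphaKO E2 libraries (n = 3) Ibsp averaged 1080 ± 119 and Bglap 1450 ± 113 CPM per kilobase, while in WT E2 libraries (n = 3) the order of these means was turned, with Ibsp at 2250 ± 675 and Bglap at 1060 ± 185.

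**Figure D1:**
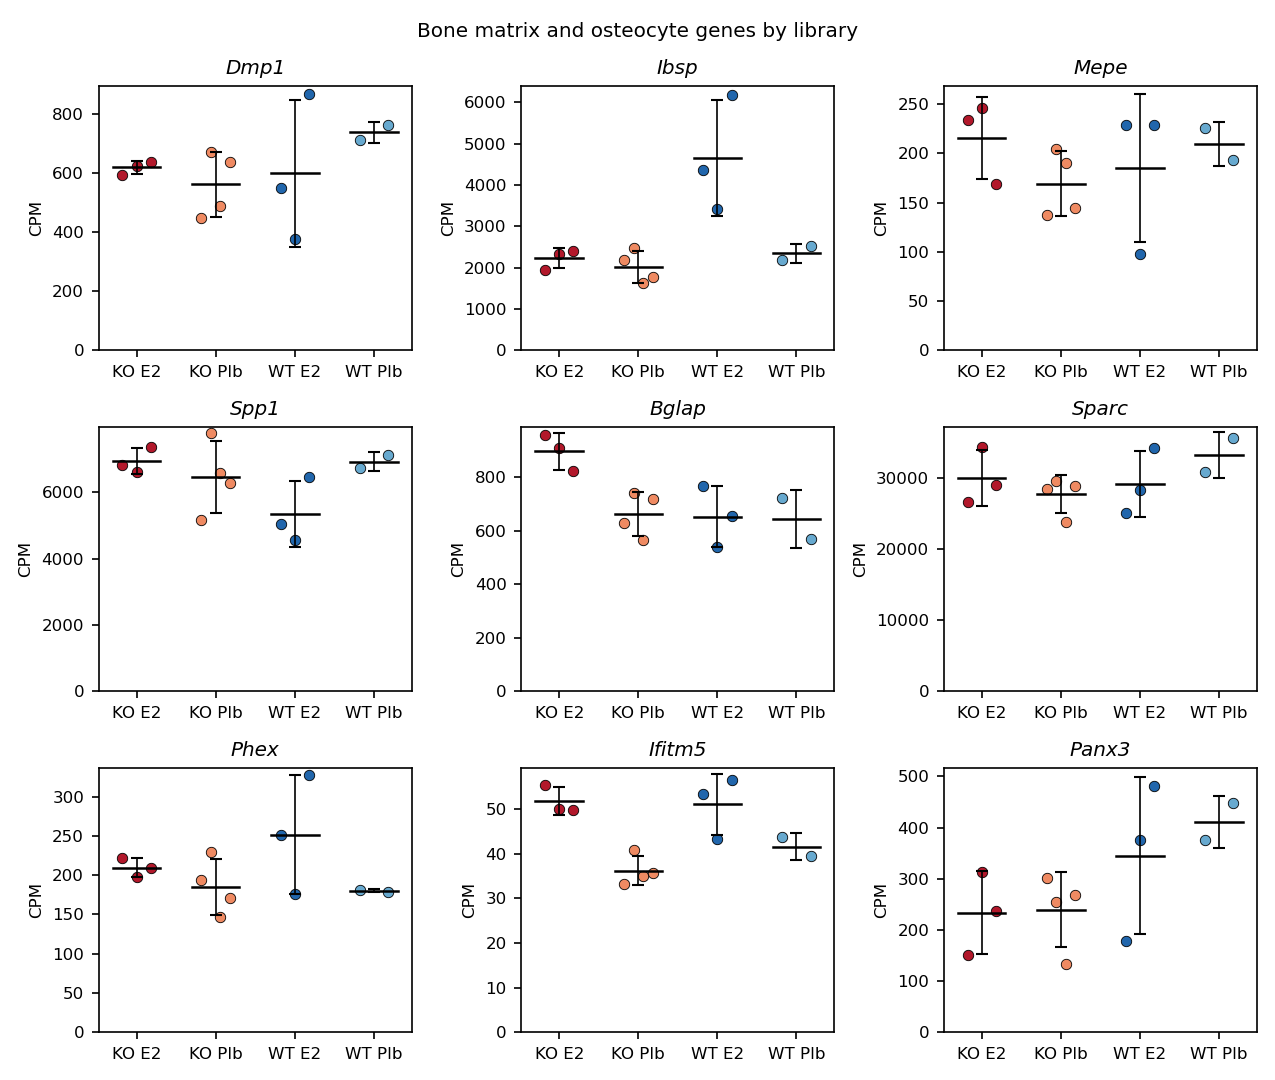
CPM (linear axis from 0) of the 9 genes in each library, with points for libraries, a horizontal bar for the group mean and whiskers for ± 1 SD. The 3 WT E2 libraries of Ibsp lie between 3415 and 6167 CPM, above all 9 other libraries. Among the other 8 genes Bglap alone has 1 group apart from all 9 others, the 3 ERalphaKO E2 libraries at 822 to 960 CPM.

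Ibsp was the gene with the largest difference. ERalphaKO mice given E2 had 1948, 2325 and 2410 CPM, and ERalphaKO mice given placebo had 2194, 2485, 1631 and 1774 CPM. In the WT E2 libraries it stood at 4374, 3415 and 6167 CPM, against 2188 and 2515 CPM in the WT placebo libraries. The WT E2 libraries were thus all above the other 9, which overlapped among themselves, and 2.3% of all genes tested show this separation upward. That pattern was noticed in the values and is a description. With E2 in WT mice the log2 fold change was 0.98 ± 0.25 (SE; 1.98-fold; 3 against 2 libraries), which did not pass edgeR's quasi-likelihood test over all genes (adjusted p = 0.198), and with E2 in ERalphaKO mice it was 0.14 ± 0.20 (adjusted p = 0.997). Between genotypes it was -1.06 ± 0.22 under E2 (2.09-fold lower in ERalphaKO; adjusted p = 0.0505) and -0.22 ± 0.23 under placebo, which did not pass either. The ERalphaKO effect of E2 minus the WT effect was -0.84 ± 0.32 (adjusted p = 0.642). A p that misses the threshold does not show that values are alike.

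Ibsp lay on either side of the threshold depending on the tool. DESeq2 on the same counts called it with E2 in WT (adjusted p = 0.0033) and between genotypes under E2 (adjusted p = 6.47e-05) but not for the difference of the E2 effect (adjusted p = 0.266). By edgeR the genotype difference under E2 passed without WT E2 replicate 2 (-1.24, adjusted p = 0.0183) and without ERalphaKO placebo replicate 3 (-1.06, adjusted p = 0.0412), and the adjusted p reached at most 0.213 in the other omissions of 1 library (-0.97 without ERalphaKO E2 replicate 1). Over all omissions of 1 library this genotype difference ranged from -1.24 to -0.806, and the Ibsp value with E2 in WT from 0.728 to 1.16. Without both libraries rich in granulocyte markers the genotype difference under E2 was -0.96 (adjusted p = 0.153). Between genotypes under E2 all 11 cartilage markers had negative log2 fold changes, with a median of -1.11. EdgeR called 0 of them, against 1.1% of all genes, and DESeq2 called 1, against 3.35%. At an unadjusted p under 0.05 there were 5, against 11.5% of all genes. WT E2 replicate 3, the library highest in Ibsp, was also the highest in the cartilage marker sum with 27140 CPM. Most macrophage markers had the sign of Ibsp in both contrasts. Between genotypes under E2, 11 of 13 were negative with a median of -0.82. There 8 reached an unadjusted p under 0.05 (11.5% of all genes), edgeR called 1 (1.1%) and DESeq2 6 (3.35%). With E2 in WT, 12 of 13 were positive with a median of 0.86. Here 9 reached an unadjusted p under 0.05 (8.14% of all genes), edgeR called 1 (0.458%) and DESeq2 5 (1.66%). The part of either list in the result was not tested. In bulk tissue, fewer cells of a type and less RNA per cell cannot be told apart.

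Within each library, Ibsp was also set against other bone matrix genes. The ratio of Ibsp to Spp1 counts was 0.285, 0.352 and 0.327 in ERalphaKO E2 libraries and 0.424, 0.319, 0.248 and 0.282 in ERalphaKO placebo libraries. It was 0.870, 0.749 and 0.955 in WT E2 libraries, against 0.326 and 0.353 in WT placebo libraries. With E2 in WT the mean log2 ratio differed by 1.33 (2.52-fold) and between genotypes under E2 by -1.41 (2.67-fold lower in ERalphaKO). Each gave an exact two-sided permutation p of 0.1, the smallest that 3 against 2 or 3 against 3 libraries allow. With E2 in ERalphaKO it differed by 0.0385 (exact permutation p = 0.914). The ratios to Bglap, to Dmp1 and to Col1a1, the main bone collagen chain, also kept the 3 WT E2 libraries above the others. Ibsp to Dmp1 was 7.10 to 9.06 in WT E2 and 2.78 to 4.90 in the other 9. Ibsp to Col1a1 was 0.110 to 0.200 in WT E2 and 0.0449 to 0.0658 in the others. These ratios all share the Ibsp counts, already seen to be highest in WT E2, so they are not separate evidence. Mean Spp1, Dmp1 and Col1a1 were themselves lower in WT E2, at 5349, 599 and 30010 CPM, against 6921, 738 and 42100 CPM in WT placebo. Mean Bglap was 654 against 645 CPM. In all, 8 ratios were compared in 4 contrasts, and over these 32 tests the adjusted p was 0.356 for each of the values with an exact p of 0.1.

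**Figure D2:**
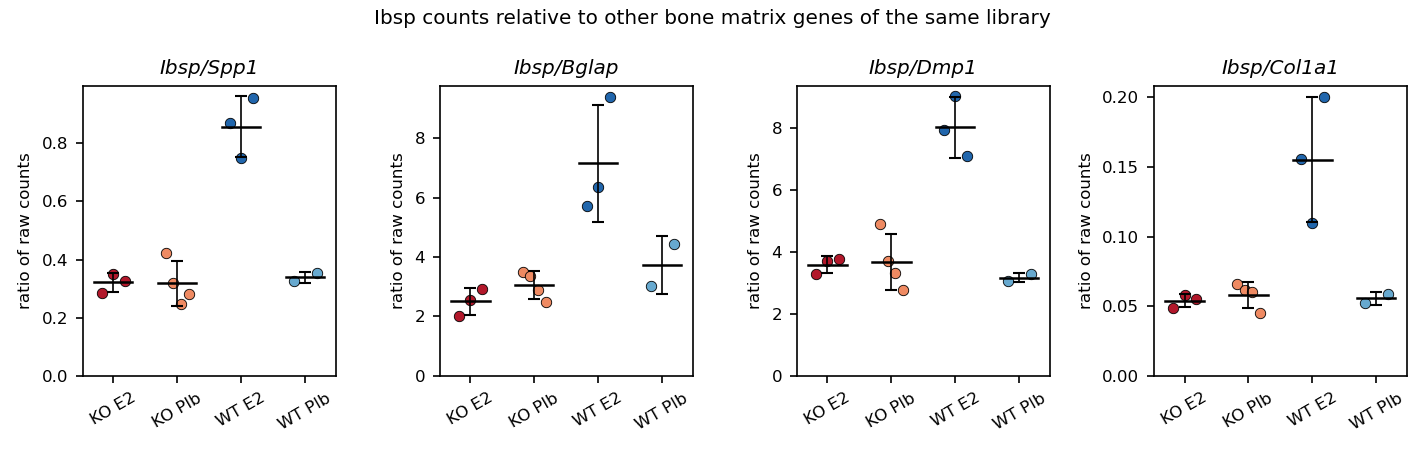
Ratio of Ibsp counts to Spp1, Bglap, Dmp1 and Col1a1 counts of the same library (linear axes from 0), with points for libraries, bars for group means and whiskers for ± 1 SD. The panels share the Ibsp counts, and in each the WT E2 libraries lie above all others, at 0.749 to 0.955 for Ibsp/Spp1.

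Spp1, which osteoblasts, osteoclasts and macrophages all make, had the opposite sign with E2 in WT. It stood at 6825, 6610 and 7362 CPM in ERalphaKO mice given E2 and at 5176, 7792, 6576 and 6284 CPM in those given placebo. In WT E2 libraries it stood at 5029, 4558 and 6460 CPM, against 6718 and 7125 CPM in WT placebo libraries. The WT E2 values lay below both WT placebo values and below all ERalphaKO E2 values, and the ERalphaKO groups overlapped. The log2 fold change was -0.37 ± 0.18 with E2 in WT (adjusted p = 0.64) and 0.10 ± 0.15 with E2 in ERalphaKO (adjusted p = 0.997). Between genotypes it was 0.37 ± 0.16 under E2 (adjusted p = 0.416), and the ERalphaKO effect of E2 minus the WT effect was 0.47 ± 0.24 (adjusted p = 0.755). Osteoclast markers, another source of Spp1, summed to 7870 to 10800 CPM in ERalphaKO E2, 7370 to 10400 CPM in ERalphaKO placebo, 7650 to 9850 CPM in WT E2 and 9300 to 10300 CPM in WT placebo libraries. Between genotypes under E2, edgeR and DESeq2 called 0 of these 11, and 3 reached an unadjusted p under 0.05, against 11.5% of all genes. Macrophage markers, whose counts stand with Ibsp above, had medians opposite in sign to Spp1 with E2 in WT (0.86) and between genotypes under E2 (-0.82). The part of either list in the Spp1 values was not tested.

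The osteocyte matrix genes Dmp1 and Mepe varied most in WT E2. Dmp1 stood at 595, 625 and 638 CPM in ERalphaKO E2 libraries and between 448 and 672 CPM in the 4 ERalphaKO placebo libraries. In WT E2 libraries it ranged from 377 to 869 CPM, against 713 and 764 CPM in WT placebo. The ERalphaKO placebo values all lay below both WT placebo values (log2 fold change -0.39 ± 0.27, adjusted p = 0.712), and the groups overlapped in the other 3 comparisons. Mepe stood at 169 to 246 CPM in ERalphaKO E2 and at 138 to 204 CPM in ERalphaKO placebo libraries. It stood at 229, 98.3 and 229 CPM in WT E2 libraries, against 225 and 194 CPM in WT placebo libraries. WT E2 replicate 2 was the lowest of all 12 libraries for both Dmp1 and Mepe. No contrast of Dmp1 or Mepe passed, and their smallest adjusted p-values were 0.712 and 0.814.

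Phex, the endopeptidase whose loss causes the phosphate wasting of X-linked hypophosphatemia, stood at 222, 198 and 209 CPM in ERalphaKO E2 libraries and between 146 and 229 CPM in ERalphaKO placebo libraries. In WT E2 libraries it stood at 251, 176 and 327 CPM, against 182 and 179 CPM in WT placebo libraries. The groups overlapped in all 4 comparisons of 2 groups, and the largest value was 0.48 ± 0.23 with E2 in WT (adjusted p = 0.638). Without WT E2 replicate 3, the highest library, it was 0.245, and over all omissions of 1 library it ranged up to 0.682.

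Bglap, the gene of osteocalcin, the vitamin K-dependent protein of bone, stood at 960, 909 and 822 CPM in ERalphaKO E2 libraries. It stood at 628, 741, 565 and 719 CPM in ERalphaKO placebo, at 766, 538 and 657 CPM in WT E2, and at 722 and 568 CPM in WT placebo libraries. The ERalphaKO E2 libraries were above the other 9, which overlapped across groups. This separation upward, noticed in the values and given as a description, is shown by 0.418% of all genes tested. The log2 fold change with E2 was 0.44 ± 0.14 in ERalphaKO (1.35-fold; adjusted p = 0.848) and 0.019 ± 0.17 in WT (adjusted p = 0.993). Between genotypes under E2 it was 0.46 ± 0.15 (1.37-fold; adjusted p = 0.258; DESeq2 adjusted p = 0.065). Skeletal muscle markers summed to 10.6 to 60.8 CPM in the ERalphaKO E2 libraries, while ERalphaKO placebo replicate 1 and WT placebo replicate 1 stood at 14.5 and 9.27 CPM and the other 7 libraries at 262 CPM or more. With E2 in ERalphaKO 14 of 14 were negative with a median of -5.72, and 12 reached an unadjusted p under 0.05, against 5.7% of all genes. EdgeR and DESeq2 called 0 of these markers. Their part in the Bglap values, and in those of Ifitm5 below, was not tested.

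The copy Bglap2 stood at 529, 569 and 416 CPM in ERalphaKO E2 and between 339 and 399 CPM in ERalphaKO placebo libraries. It stood at 507, 383 and 428 CPM in WT E2, against 470 and 354 CPM in WT placebo libraries. With E2 in ERalphaKO its value was 0.41 ± 0.14 (adjusted p = 0.848), close in size to that of Bglap, while between genotypes under E2 it was 0.20 ± 0.15 (adjusted p = 0.692) and the groups overlapped. With the counts of Bglap and Bglap2 summed, a setting chosen after seeing the data, the value was 0.43 with E2 in ERalphaKO (adjusted p = 0.849) and 0.36 between genotypes under E2 (adjusted p = 0.392).

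Ifitm5, which encodes a small membrane protein of mineralizing osteoblasts, had the least spread between replicates of the 9 genes. Its biological coefficient of variation was 11.3%, against 25.9% for all genes in common. Its within-group SD of log2 CPM was 0.139, at percentile 31.7 of all genes tested, whose median was 0.194. Ifitm5 stood at 55.4, 50.03 and 49.9 CPM in ERalphaKO E2 libraries, against 33.3, 40.9, 35.1 and 35.8 CPM in ERalphaKO placebo libraries. In WT it stood at 53.4, 43.3 and 56.5 CPM under E2, against 43.8 and 39.5 CPM under placebo. The ERalphaKO groups did not overlap, and in WT 1 E2 library lay just below the higher placebo library. With E2 in ERalphaKO the log2 fold change was 0.51 ± 0.10 (1.43-fold). Only 1 gene in that contrast had a smaller unadjusted p, but no gene passed the adjustment by edgeR (Ifitm5 adjusted p = 0.848; DESeq2 adjusted p = 0.0456). In WT it was 0.30 ± 0.12 (adjusted p = 0.569), and the ERalphaKO minus the WT effect was 0.22 ± 0.16 (adjusted p = 0.831). Averaged over both genotypes, E2 against placebo gave 0.40 ± 0.08 (6 against 6 libraries; adjusted p = 0.123; DESeq2 adjusted p = 0.00204). Without WT E2 replicate 2 this average passed by edgeR (0.46, adjusted p = 0.0196). Between genotypes Ifitm5 gave 0.019 ± 0.11 under E2 (adjusted p = 0.978) and -0.20 ± 0.11 under placebo (adjusted p = 0.654).

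Panx3 encodes a pannexin channel of osteoblasts and prehypertrophic chondrocytes. It stood at 151, 313 and 238 CPM in ERalphaKO mice given E2 and at 301, 255, 135 and 268 CPM in those given placebo. In WT E2 libraries it stood at 179, 376 and 480 CPM, against 376 and 447 CPM in WT placebo libraries. All ERalphaKO placebo values lay below both WT placebo values, and the E2 groups overlapped. Its log2 fold change between genotypes was -0.78 ± 0.40 under placebo (adjusted p = 0.611), -0.56 ± 0.39 under E2 (adjusted p = 0.646) and -0.67 ± 0.28 averaged over treatments (7 against 5 libraries; adjusted p = 0.316). Both libraries rich in granulocyte markers had the lowest Panx3 values of the 12, and without them the averaged value was -0.44 (adjusted p = 0.465) and that under E2 -0.314. Omission of 1 library moved the value under E2 to between -0.873 (without WT E2 replicate 1) and -0.247 (without WT E2 replicate 3). Panx3 also had the most spread of the 9, with a biological coefficient of variation of 33.6%. Both libraries rich in granulocyte markers were also the lowest in summed cartilage markers, at 6013 and 6089 CPM. All 11 cartilage markers were negative between genotypes under placebo (median -0.41) and averaged over treatments (median -0.70). At an unadjusted p under 0.05 there were 0 and 6 of them, against 8.93% and 14% of all genes. EdgeR called 0 in both, against 0.0135% and 0.978% of all genes. DESeq2 called 0 and 1, against 1.01% and 3.99%. The part of the cartilage markers in the Panx3 values was not tested.

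Sparc, the gene of osteonectin, a collagen-binding matrix protein that many connective tissue cells make, took 2.502% to 3.457% of all counts. It stood at 26510, 34230 and 28960 CPM in ERalphaKO E2 and between 23700 and 29570 CPM in ERalphaKO placebo libraries. It stood between 25050 and 34130 CPM in WT E2, against 30840 and 35490 CPM in WT placebo libraries. The ERalphaKO placebo libraries lay below both WT placebo libraries (-0.26 ± 0.16, adjusted p = 0.685), and the groups overlapped in the other 3 comparisons. Its largest value in size was that of the ERalphaKO minus the WT effect of E2, 0.30 ± 0.23 (adjusted p = 0.841).

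Set side by side, the 9 genes did not share one direction, and edgeR called none of them. With E2 in WT, 0 of 9 passed by edgeR, against 0.458% of all genes, and 2 of 9 reached an unadjusted p under 0.05, against 8.14% of all genes; DESeq2 called 1, against 1.66%. With E2 in ERalphaKO, 0 of 9 passed by edgeR, against 0% of all genes, 2 reached an unadjusted p under 0.05, against 5.7%, and DESeq2 called 1, against 0.0337%. Between genotypes under placebo, 0 of 9 passed by edgeR, against 0.0135% of all genes, 0 reached an unadjusted p under 0.05, against 8.93%, and DESeq2 called 0, against 1.01%. Between genotypes under E2, 0 of 9 passed by edgeR, against 1.1% of all genes, 3 reached an unadjusted p under 0.05, against 11.5%, and DESeq2 called 1, against 3.35%. The E2 effects of the genotypes differed in 0 of 9 genes by edgeR, against 0.0539% of all genes, 1 reached an unadjusted p under 0.05, against 6.78%, and DESeq2 called 0, against 0.688%.

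Averaging both treatments or both genotypes did not bring a call by edgeR. For genotype averaged over treatments, 0 of 9 passed, against 0.978% of all genes, 2 reached an unadjusted p under 0.05, against 14%, and DESeq2 called 1, against 3.99%. The DESeq2 call was Ibsp (adjusted p = 0.0022), which edgeR placed at -0.64 ± 0.16 (adjusted p = 0.0993). For E2 averaged over genotypes, 0 of 9 passed by edgeR, against 0.0539% of all genes, 2 reached an unadjusted p under 0.05, against 7.85%, and DESeq2 called 2, against 0.897%, Ibsp (adjusted p = 0.0302) and Ifitm5.

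The medians over the 9 genes were small. They were -0.18 with E2 in WT and 0.14 with E2 in ERalphaKO, where the medians of all genes were -0.0043 and 0. Between genotypes they were -0.22 under placebo and 0.038 under E2, where all genes had 0.010 and -0.0031. Signs split as 4 positive and 5 negative with E2 in WT, but as 8 and 1 with E2 in ERalphaKO, Panx3 being the negative one (-0.035 ± 0.36). Under placebo 2 were positive and 7 negative between genotypes, and under E2 6 were positive and 3 negative. These 4 comparisons share libraries, since each group enters 2 of them. The libraries did not overlap for Ibsp and Spp1 with E2 in WT (26.9% of all genes), for Bglap and Ifitm5 with E2 in ERalphaKO (5.67%), for Dmp1, Panx3 and Sparc under placebo (21.1%) and for Ibsp, Spp1 and Bglap under E2 (15.9%). Averaged by genotype or by treatment, the libraries overlapped for all 9, where 1.36% and 0.384% of all genes did not.

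**Figure D3:**
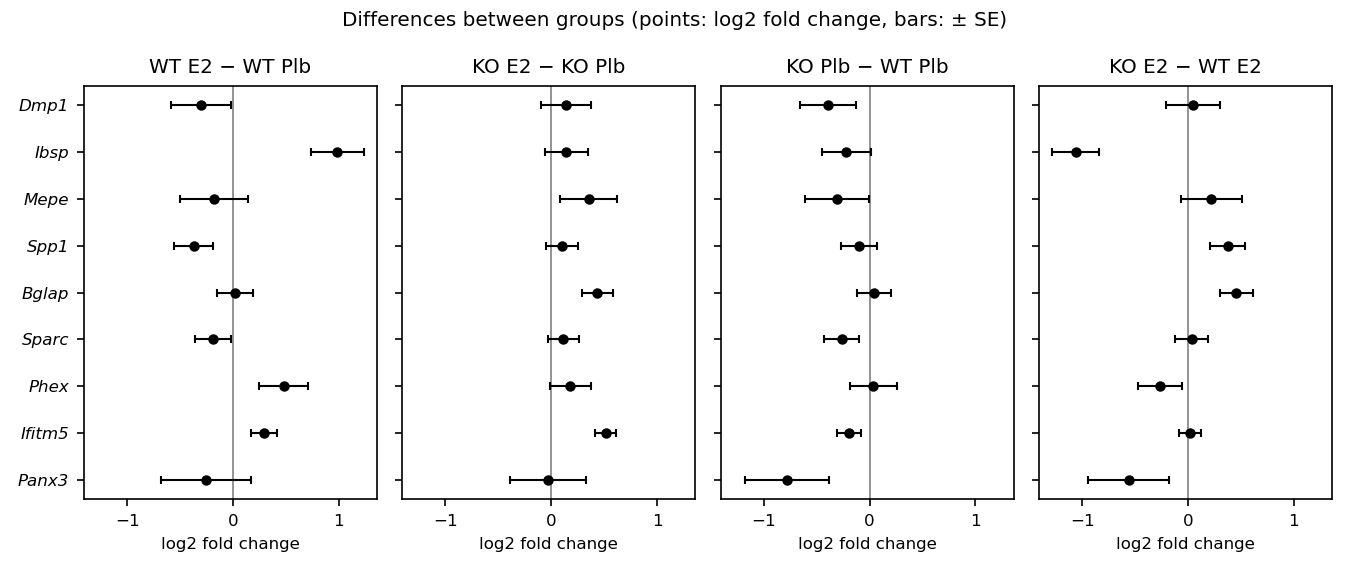
Log2 fold changes of the 9 genes in 4 comparisons, with points for the edgeR estimate and bars for ± 1 SE on a linear log2 axis. Ibsp gave 0.98 with E2 in WT and -1.06 between genotypes under E2, and the other genes lay nearer to 0 in both.

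The authors' deposited tables compared every pair of groups, with log2 fold changes and adjusted p-values of their own. With WT E2 over WT placebo, the authors' deposited table gave Ibsp 0.93 (adjusted p = 0.00615), the 1 call among the 9, against 1.75% of all genes with an adjusted p. Mepe had no adjusted p in that comparison. With ERalphaKO E2 over WT E2, the authors' deposited table called Ibsp (-1.03, adjusted p = 3.99e-05) and Bglap (0.46, adjusted p = 0.0435), against 3.75% of all genes. With ERalphaKO placebo over WT E2, the authors' deposited table called Ibsp (-1.17, adjusted p = 5.25e-06) and Ifitm5 (-0.48, adjusted p = 0.00713), against 6.34% of all genes. With ERalphaKO E2 over ERalphaKO placebo, the authors' deposited table called Ifitm5 (0.51, adjusted p = 0.0156), the 1 call among the members, against 0.0494% of all genes. For both comparisons with ERalphaKO over WT placebo, the authors' deposited tables called 0 of 9 members, against 0.563% and 1.82% of all genes. The fit behind these tables is not the one used here.

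**Figure D4:**
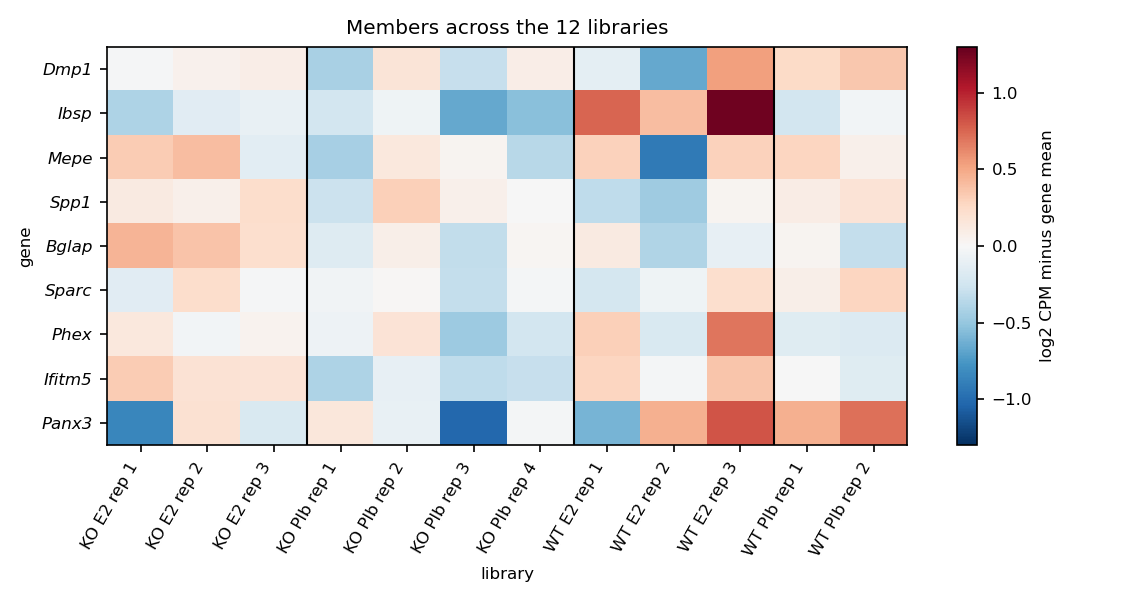
Log2 CPM of each gene minus its mean over the 12 libraries, from blue (below its mean) to red (above). Ibsp is red in the 3 WT E2 columns, Panx3 is most blue in ERalphaKO placebo replicate 3 and ERalphaKO E2 replicate 1, and no library shifts all 9 genes one way.

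The genes were also compared in pattern across the 12 libraries. Likeness was taken as the root mean square difference of log2 CPM after centring each gene on its mean, where a smaller value is more alike. It also grows with the size of each gene's changes, so a large value does not show that genes move apart. Among the 36 pairs, Phex and Ifitm5 were nearest (0.202), then Spp1 and Dmp1 (0.223), and Mepe and Panx3 were farthest (0.737). Ibsp and Spp1, both in the chromosome 5 cluster, were 0.643 apart, the 34th of 36 pairs. Over all tested genes that are no members, the nearest to Ibsp were Bmp8a, Lifr and Rcor2 (0.150, 0.170 and 0.170, with a median of 0.564 over all genes). Those nearest to Panx3 were Hapln1, a cartilage link protein gene, Smpd3, a sphingomyelinase gene of mineralizing tissue, and Slc7a2 (0.242, 0.249 and 0.293, median 0.601). Ifitm5 was nearest to Galnt3, Fzd5 and Gprc5c (0.125 to 0.133), Bglap to Nmnat2, Mmp17 and Rhpn2 (0.0993 to 0.116), and Spp1 to Lipt2, Pkp4 and Fjx1 (0.109 to 0.131). Dmp1 was nearest to Slc16a8, Camk2n2 and Ppa1 (0.167 to 0.187), and Mepe to O3far1, Fgf1 and Pgf (0.212 to 0.219). Phex was nearest to Entpd3, Spdya and Afap1l2 (0.116 to 0.131), and Sparc to Brdt, Cercam and Inpp1 (0.0746 to 0.084).

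Other genes of osteocytes and of phosphate handling did pass the test. Among 12 osteocyte genes, 0 were higher and 2 lower in ERalphaKO than in WT averaged over treatments, against 0.56% and 0.418% of all genes called higher and lower, with a list median of -0.16. These 2 include Fgf23, which passed the filter only through the group where it was high, so the count of 2 is a description. The first was Sost, whose product sclerostin is the osteocyte inhibitor of Wnt signalling. Sost stood at 44.5 to 89.75 CPM in ERalphaKO E2 and 46.6 to 82.8 CPM in ERalphaKO placebo libraries; it stood at 162 to 362 CPM in WT E2, against 149 and 95.85 CPM in WT placebo libraries. Every ERalphaKO library was thus lower in Sost than every WT library (-1.49 ± 0.24, adjusted p = 0.0215). Of all genes tested, 1.36% show such a separation in either direction. The nearest Sost values were 89.75 CPM in ERalphaKO E2 and 95.85 CPM in WT placebo. Under E2 alone Sost gave -2.02 ± 0.35 (adjusted p = 0.0211). Neither its placebo value of -0.97 ± 0.34 (adjusted p = 0.459) nor its value with E2 in WT, 1.16 ± 0.38 (adjusted p = 0.415), passed. The averaged call was lost in 6 of 12 omissions of 1 library: WT placebo replicate 1 or 2, WT E2 replicate 1, ERalphaKO placebo replicate 1, and ERalphaKO E2 replicate 1 or 3 (adjusted p up to 0.156). The call under E2 was lost in 4, WT E2 replicate 1 or 3 and ERalphaKO E2 replicate 1 or 3 (up to 0.104).

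The other was Fgf23, the phosphate-lowering hormone that Dmp1 and Phex restrain, on few counts. It had 5 counts in the 3 ERalphaKO E2 libraries and 7 in the 4 ERalphaKO placebo libraries, and 39 in the 3 WT E2 libraries, against 13 in the 2 WT placebo libraries. Only WT E2 replicates 1 and 3, with 11 and 19 counts, held the filter's minimum count of 10. Fgf23 thus passed the filter only through the group where it was high, and its call is given as a description. Its averaged genotype value was -2.20 ± 0.39 (adjusted p = 0.0318), and the call was kept in 3 of the 10 omissions in which it passed the filter. Without either of those WT E2 libraries it did not pass the filter. The call was lost without WT placebo replicate 1 or 2, ERalphaKO placebo replicate 1, 2 or 4, or ERalphaKO E2 replicate 1 or 3 (adjusted p up to 0.205).

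Among 11 tested genes of mineral and phosphate handling, Slc20a2, a sodium-phosphate cotransporter, was the 1 called in each of 4 contrasts, against 0.0876% of all genes lower with E2 in WT, 0.452% and 0.56% higher in ERalphaKO under E2 and averaged over treatments, and 0.00674% positive for the difference of E2 effects. It stood at 190.5, 145.5 and 147 CPM in ERalphaKO E2 and between 126 and 155 CPM in ERalphaKO placebo libraries; it stood at 58.7, 47.25 and 48.8 CPM in WT E2, against 118 and 114 CPM in WT placebo libraries. It fell with E2 in WT (-1.17 ± 0.14, adjusted p = 0.00666), its value in ERalphaKO was 0.14 ± 0.12 (adjusted p = 0.991), and the difference of these effects passed (1.31 ± 0.18, adjusted p = 0.0429). Between genotypes under E2 it was 3.12-fold higher in ERalphaKO (1.64 ± 0.13, adjusted p = 0.000289), and this call was kept without any 1 library. The fall in WT lost its call without either WT placebo library (adjusted p up to 0.0935), and the difference of effects was kept in 3 of 12 omissions: WT E2 replicate 1 or 2, or ERalphaKO placebo replicate 3.

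Among 17 osteoblast genes, 0 were higher and 1 lower in ERalphaKO under E2, against 0.452% and 0.647% of all genes, with a list median of -0.15. That gene was Bmp8a, a bone morphogenetic protein and also the gene nearest in pattern to Ibsp. It stood at 14.15, 16.8 and 17.7 CPM in ERalphaKO E2 and 12.9 to 17.9 CPM in ERalphaKO placebo libraries; it stood at 29.6, 29.7 and 41.0 CPM in WT E2, against 20.3 and 19.1 CPM in WT placebo libraries. Its genotype value was -1.04 ± 0.16 under E2 (adjusted p = 0.0119), lost without ERalphaKO E2 replicate 1 (adjusted p = 0.0686), and -0.71 ± 0.11 averaged over treatments (adjusted p = 0.0211). The averaged call was lost without WT placebo replicate 1 or 2 or ERalphaKO placebo replicate 1 (up to 0.14). Averaged over treatments Pth1r, the receptor of parathyroid hormone, was also lower (-0.56 ± 0.11, adjusted p = 0.0443), a call kept in 3 of 12 omissions, those of WT E2 replicate 2, ERalphaKO placebo replicate 3 and ERalphaKO E2 replicate 2.

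**Figure D5:**
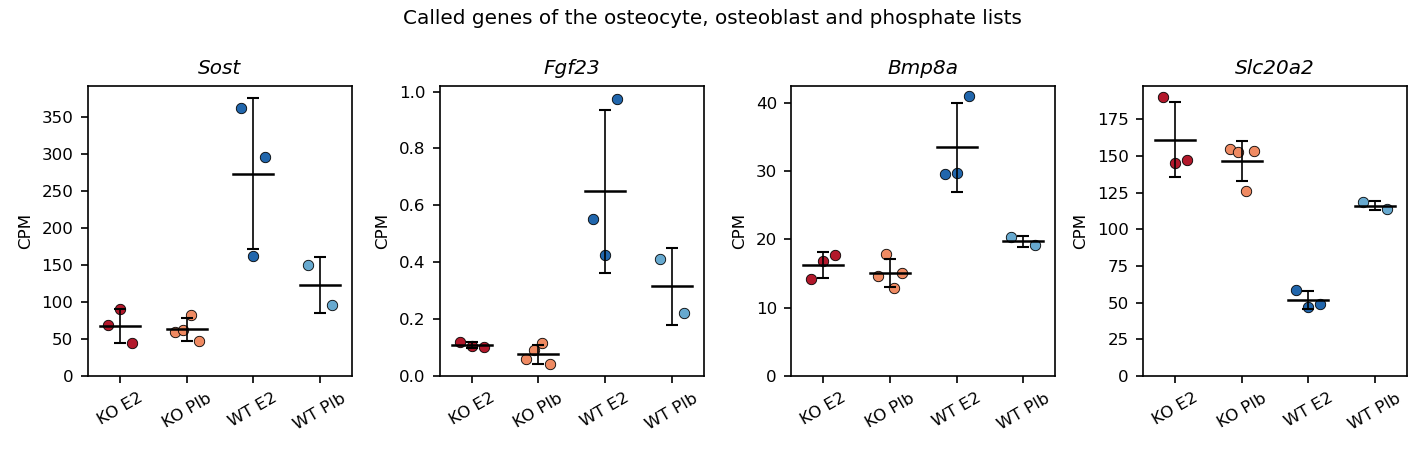
CPM (linear axes from 0) of Sost, Fgf23, Bmp8a and Slc20a2 in each library, with points for libraries, bars for group means and whiskers for ± 1 SD. Sost and Bmp8a lie highest in WT E2, and Slc20a2 lies lowest there, at 47.25 to 58.7 CPM; Fgf23 rests on 1 to 19 counts a library.

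In the family of Sparc, 7 of 8 genes were tested, and under E2 1 was higher and 1 lower in ERalphaKO, against 0.452% and 0.647% of all genes. Fstl1, a secreted follistatin-like protein gene, was 1.48-fold higher (0.57 ± 0.11, adjusted p = 0.039), and Smoc2, a calcium-binding matrix protein gene, 1.72-fold lower (-0.79 ± 0.15, adjusted p = 0.039). Averaged over treatments, Smoc2 gave -0.59 ± 0.11 (adjusted p = 0.0385), 1 call lower against 0.418% of all genes, and it was kept in 3 of 12 omissions. The Fstl1 call was kept only without WT E2 replicate 2 or ERalphaKO placebo replicate 3, and the Smoc2 call under E2 only without any 1 of ERalphaKO placebo replicates 1 to 3 or ERalphaKO E2 replicate 3. Among 13 tested enzymes and receptors of bone matrix proteins, such as the kinase gene Fam20c and the integrin genes, edgeR called 0 in every contrast. In these, 1 to 4 members reached an unadjusted p under 0.05, while by DESeq2 1 was called with E2 in WT, 1 between genotypes under E2 and 1 averaged over treatments. Of 8 hypertrophic chondrocyte genes, which share Pth1r with the osteoblast genes, Pth1r was the 1 called by edgeR in any contrast. Of 2 tested pannexins and 5 tested Ifitm genes, 0 were called by edgeR in any contrast, at most 1 a contrast reached an unadjusted p under 0.05, and Ifitm5 was the 1 gene that DESeq2 called.

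Markers of other cells differed between some groups, and their part in these results was not tested. Macrophage markers had positive values with E2 in WT in 12 of 13 genes (median 0.86, 1 called, Mgl2, a call kept in 3 of 12 omissions). Of these 13, 9 reached an unadjusted p under 0.05, against 8.14% of all genes. Under E2 between genotypes 8 did, against 11.5%, and Mgl2 was lower in ERalphaKO (adjusted p = 0.0126), a call kept in 9 of 12 omissions. For the ERalphaKO minus the WT effect of E2, 12 of 13 were negative (median -0.98), and 7 reached an unadjusted p under 0.05, against 6.78%, with 0 called by edgeR and 1 by DESeq2. They summed to 859 to 1880 CPM in ERalphaKO E2, 977 to 2710 CPM in ERalphaKO placebo, 1040 to 1530 CPM in WT E2 and 856 to 1140 CPM in WT placebo libraries. Skeletal muscle markers were negative in 14 of 14 tested genes with E2 in ERalphaKO (median -5.72), where 12 reached an unadjusted p under 0.05, against 5.7% of all genes. For E2 averaged over genotypes 14 of 14 were again negative (median -3.28) and 12 reached it, against 7.85%. Between genotypes under E2 14 of 14 were negative (median -4.46) and 2 reached it, and edgeR and DESeq2 called 0 in each of these 3 contrasts. Their sums were 10.6 to 60.8 CPM in ERalphaKO E2, 14.5 to 6890 CPM in ERalphaKO placebo, 262 to 1310 CPM in WT E2 and 9.27 to 2840 CPM in WT placebo libraries. The osteoblast genes themselves summed to 103000 to 110000 CPM in ERalphaKO E2, 76600 to 104000 CPM in ERalphaKO placebo, 73600 to 88400 CPM in WT E2 and 106000 to 112000 CPM in WT placebo libraries. Col1a1 and Col1a2 made up most of these sums, at a mean of 30010 and 35610 CPM in WT E2, against 42100 and 47440 CPM in WT placebo libraries. Among lymphocyte markers, 2 of 4 tested genes, the B cell genes Cd79a and Cd79b, were higher in ERalphaKO averaged over treatments, against 0.56% of all genes (adjusted p = 0.0287 and 0.0225; kept in 4 and 8 of 12 omissions). With the replicate number as a block both calls were lost (adjusted p = 0.067 and 0.0632). The list summed to 14.7 to 82.6 CPM in ERalphaKO E2, 43.9 to 124 CPM in ERalphaKO placebo, 11.6 to 19.8 CPM in WT E2 and 10.1 to 13.3 CPM in WT placebo libraries. Adipocyte, endothelial and fibrocartilage surface markers had 0 calls by edgeR in any contrast, with at most 6, 2 and 3 genes at an unadjusted p under 0.05 and at most 1, 1 and 2 called by DESeq2. With E2 in WT all 8 tested adipocyte markers were negative (median -4.27). Of these, 6 reached an unadjusted p under 0.05, against 8.14% of all genes. Of the 9 listed, 2 averaged at least 1 CPM in WT E2 and 7 in WT placebo libraries. The list summed to 68 to 113 CPM in WT E2, against 101 and 187 CPM in WT placebo libraries, so the sums overlapped. The 2 WT placebo libraries were far apart in Cfd (0.586 and 24.4 CPM), Cidec (0.117 and 5.02 CPM) and Plin1 (0.117 and 3.99 CPM). Adipoq was at 7.565 and 15.79 CPM in them, against 0.0471 to 1.555 CPM in WT E2. Granulocyte markers were positive between genotypes in 12 of 12 genes under placebo (median 5.09) and averaged over treatments (median 3.89). In the latter 6 reached an unadjusted p under 0.05, against 14%, with 0 called by edgeR and 3 by DESeq2. Erythroid markers had 0 calls by edgeR among 4 tested, with at most 3 at an unadjusted p under 0.05 and at most 1 called by DESeq2. Between genotypes under E2 the 4 tested erythroid markers were all positive (median 4.3), and 3 reached an unadjusted p under 0.05, against 11.5%. The defining erythroid genes Hba-a1, Hba-a2, Hbb-b1 and Hbb-b2 were at 0 counts in every library, while Alas2 ranged from 20.3 to 64.6 CPM. How reads matching several genes were counted is not given, so these zeros do not show that erythroid cells were absent.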

How the data were processed

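RNA sequencing was done on 12 libraries with reads of 100 bases. Base calling used bcl2fastq 2.17 and alignment TopHat to mouse build mm9, per the submitters' processing notes; for the counting tool, its annotation, its strand setting and its treatment of reads matching several genes, nothing is given in the sources used here. Analysed values were whole-number read counts per gene, as the authors deposited them, and 23284 genes were listed. The authors' deposited log2 fold changes and adjusted p-values were quoted as such, and a deposited table of normalized values was not used. The labels name more than one sequencing instrument without saying which library ran on which, so an instrument effect cannot be told apart from the groups.

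Counts were scaled by TMM and fitted with edgeR 4.0.16 (limma 3.58.1, R 4.3.3), with 1 mean per group over all 12 libraries and 8 residual degrees of freedom. Genes were kept by filterByExpr at a minimum count of 10, which left 14832. The quasi-likelihood F-test was adjusted by Benjamini-Hochberg over all genes within each of 7 contrasts, with a threshold of 0.05, and standard errors were taken from the F statistic, as the size of the log2 fold change over its square root. Log2 CPM used a prior count of 2. DESeq2 1.42.0, other scalings and filters, the replicate number as a block, the compared groups alone, the summed counts of Bglap and Bglap2 and omission of libraries were the alternatives. Ratios of counts within a library were compared by exact two-sided permutation tests. Steps were tested on simulated data. Some listed genes, and a planned sum over more osteocalcin copies, are not reported here.

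All members were named with values, together with the 3 genes nearest to each in pattern and every gene of the other lists that passed the test. The members and lists were chosen with earlier results of these data known, and the separation of WT E2 from all other libraries was seen in the values before it was counted. Depth was 9696434 to 28750636 counts a library, and reads without molecular identifiers are not independent molecules. Exon lengths and coding sequences came from GENCODE M21 (GRCm38) and promoters from RefSeq (GRCm38.p6), matched by symbol and not by the coordinates of mm9.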

Additional observations from a re-analysis of the deposited data

Results flagged for a closer look

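Bglap2, the close copy of Bglap, had 1 library far from the other 3 among the ERalphaKO placebo libraries. Replicate 3 stood at 339 CPM and the others at 390 to 399 CPM, so that its gap to the nearest took 0.853 of the range, above the critical value of Dixon's test for 4 samples. Chance alone gives such a gap in about 1 in 20 groups, and replicate 3 is also the library with the highest granulocyte marker sum; the part of either was not tested. For the 9 genes themselves the gap took 0.182 to 0.8 of the range.

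Slc20a2 was the 1 listed gene whose E2 effect differed between genotypes by the test of the difference itself, at 1.31 on the log2 scale (ERalphaKO effect minus WT effect, edgeR adjusted p = 0.0429). The call was kept in 3 of 12 omissions of 1 library, with adjusted p-values between 0.0256 and 0.267.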

How the results depend on the processing

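Of 1296 fold changes of the 9 genes under other settings, 1246 kept their direction and side of the threshold, 11 newly passed and 39 changed sign, all of the last from values that had not passed. Genes among the 9 called by DESeq2 numbered 1 with E2 in WT, 1 with E2 in ERalphaKO, 1 between genotypes under E2, 1 for genotype averaged over treatments and 2 for E2 averaged over genotypes, against 0 by edgeR in each. Ibsp between genotypes under E2 also passed with RLE scaling (1 gene; adjusted p = 0.0499) and with a filter of at least 1 CPM in every library of a group (1 gene; adjusted p = 0.0447). Leaving out 1 library gave 0 to 1 genes there and for E2 averaged over genotypes. With the longest transcript as length, 5 of 9 genes kept their place in the order of levels. Signs changed for Panx3 with E2 in ERalphaKO (0.00208) and Ifitm5 between genotypes under E2 (-0.0191) without both libraries rich in granulocyte markers, for Bglap under placebo with the counts of Bglap and Bglap2 summed, an alternative chosen after seeing the data (-0.0199), and for Mepe in the averaged genotype value with the replicate block (0.00224); the cause was not tested.

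Leaving out 1 library moved values through 0 as follows. With E2 in WT, Bglap ranged from -0.144 to 0.202, Mepe from -0.359 to 0.125 and Panx3 from -0.568 to 0.0574. With E2 in ERalphaKO, Panx3 ranged from -0.303 to 0.2. Under placebo, Bglap ranged from -0.124 to 0.223, Spp1 from -0.203 to 0.00158 and Phex from -0.0824 to 0.134. Under E2, Dmp1 ranged from -0.197 to 0.416, Mepe from -0.0819 to 0.402, Ifitm5 from -0.0864 to 0.0976 and Sparc from -0.0714 to 0.167. The Panx3 difference of E2 effects ranged from -0.093 to 0.532. Averaged by genotype, Dmp1 ranged from -0.296 to 0.0111, Mepe from -0.195 to 0.0466 and Phex from -0.214 to 0.00381. Averaged by treatment, Dmp1 ranged from -0.265 to 0.0421, Mepe from -0.00343 to 0.239, Panx3 from -0.302 to 0.0109 and Sparc from -0.102 to 0.0155.

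Over all genes, edgeR called 68 with E2 in WT, 0 with E2 in ERalphaKO, 2 under placebo, 163 under E2, 8 for the difference of effects, 145 averaged by genotype and 8 averaged by treatment, where DESeq2 called 246, 5, 150, 497, 102, 591 and 133. With the compared groups alone the counts were 7 with E2 in WT, 0 under placebo and 66 under E2; this ended the calls of Slc20a2 (adjusted p = 0.0675) and Mgl2 (0.179) with E2 in WT and of Sost (0.0785), Bmp8a (0.0571), Smoc2 (0.1) and Fstl1 (0.129) under E2. Upper-quartile scaling ended those of Fstl1 under E2 (0.0526), Pth1r averaged by genotype (0.0517) and the Slc20a2 difference of effects (0.0542). Without both libraries rich in granulocyte markers the counts were 57 under placebo and 70 under E2. Omitting 1 library gave 1 to 131, 0 to 0, 1 to 4, 51 to 236, 0 to 31, 13 to 247 and 1 to 64 calls in the same order of contrasts.

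Replicate numbers are shared between groups, and the numbers were not taken to pair libraries. Deviations from the group mean correlated at -0.326 to 0.5 between same-numbered libraries. Both extremes involve the 2 WT placebo libraries, whose deviations mirror each other. Deviations within a group sum to 0, which forces mixed signs, so these correlations could not show or exclude pairing. With the replicate block, 0 of the 9 genes passed in any contrast, Ibsp between genotypes under E2 gave -1.06 (adjusted p = 0.155), and the calls over all genes were 18 with E2 in WT, 0 under placebo, 62 under E2, 3 for the difference of effects and 34 averaged by genotype. Bmp8a and Sost lost their calls under the block (adjusted p = 0.0603 and 0.078 under E2; 0.0813 and 0.094 averaged by genotype), as did Smoc2 under E2 (0.123) and averaged (0.127), Fstl1 under E2 (0.0898), Pth1r (0.158), Fgf23 (0.0922), Cd79a (0.067) and Cd79b (0.0632) averaged, and the Slc20a2 difference of effects (0.0942); the other Slc20a2 calls and both Mgl2 calls passed. Without both libraries rich in granulocyte markers 0 of the 9 genes passed, and Sost under E2 (0.0768), Fgf23 (0.0735) and Pth1r (0.0547) averaged by genotype, Fstl1 (0.0577) and Smoc2 (0.13) under E2, and Smoc2 averaged by genotype (0.074) lost their calls. The 2 WT placebo libraries limit every contrast they enter.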
